A study of Homo sapiens with 8 samples.

Results

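The genes described here encode the proteins of the mitochondrial ribosome. They were chosen by name, as the protein-coding genes called MRPL or MRPS followed by a number and, in a few cases, a letter, without use of any measured value. There are 78 of them among 60796 genes in the table, of which 19940 are protein-coding: 49 carry MRPL names, for the large subunit, and 29 carry MRPS names, for the small subunit. The RNA is that of HT-29, a permanent cell line derived from a colorectal adenocarcinoma, grown in RPMI-1640 with serum in all groups. The 4 groups are a control, cells exposed to 5-fluorouracil (5-FU, an antimetabolite that blocks thymidylate synthase and enters RNA and DNA), and cells exposed to an extract of the rice variety MRQ 74 (74 3NP extract) or MRQ 76 (76 3P extract) at its IC50, the dose midway to its full inhibitory effect. Every group has a library from 24 h and a library from 48 h of exposure, which makes 8. No source used here gives the amounts of extract or 5-FU or spells out 3NP and 3P. Groups were read from the sample titles, because the label for treatment names a plant extract in every sample, the controls and 5-FU included. Nothing ties the libraries of a group to separate cultures, so the p-values cannot be taken to measure spread among cultures. They rest on the change of treatment differences from 24 h to 48 h, where time and technical spread cannot be told apart.

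Mitochondria translate a handful of membrane proteins of the respiratory chain and ATP synthase, all encoded by their own small genome, on a ribosome of their own. Its RNAs, MT-RNR1 of the small subunit and MT-RNR2 of the large subunit, are made inside the organelle, while every one of its proteins is encoded in the nucleus, made in the cytosol and imported. Many of these proteins descend from bacterial ribosomal proteins and others are found only in mitochondria. In bulk RNA, fewer expressing cells and less RNA per cell cannot be told apart.

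Reads on genes, recovered from the table as described under the processing, ranged from 18141663 to 28048517 per library. The labels call the cells enterocytes, but the 5 enterocyte markers summed to at most 0.412 FPKM in any library, with FABP2 and APOA4 at 0 in most. The 8 markers of colon epithelium summed to between 1358 FPKM, in the 76 3P extract 48 h library, and 2467 FPKM, in the 5-FU 48 h library, with none at 0. The 76 3P extract 48 h library had the most genes above 0, 26712 against 23111 to 24665 in the others, and the largest share of reads from mitochondrial genes, 6.83%. The share was 5.52% in the 5-FU 48 h library and 2.96% and 3.18% in the controls.

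The starts of these genes are shown because many of them share short sequence elements and because the members printed are among those the results turn on. RefSeq promoter windows (GRCh38.p14, 250 bases before to 50 bases after the annotated start) matched 69 of the 78 genes. Searched on both strands were the core letters of sites for GABP and related ETS factors (CCGGAAG), YY1 (AAGATGGC) and NRF1 (GCGCANGC), factors known as activators of nuclear genes for mitochondria. CCGGAAG occurred in 29 of the 69 windows (42.0%), against 14.4% of 15130 windows of protein-coding genes. AAGATGGC occurred in 20 (29.0%), against 3.99%, and GCGCANGC in 23 (33.3%), against 16.8%. The protein-coding windows include genes not expressed in these cells, so these shares are not a comparison with expressed genes alone. A match is a description of letters and not evidence of binding. The stretches below run 5′ to 3′ from 150 bases before to 30 bases after the start, with matches in capitals. MRPS6 and MRPL18, the members with the clearest difference under 5-FU, had no match to any of the 3 motifs in these stretches. MRPL17 has GCGCANGC matches in a self-overlapping run and once more, MRPL20 and MRPL51 each have CCGGAAG on either strand at 2 places and AAGATGGC just after the start, and MRPL45 has AAGATGGC there. The windows of MRPL20 and MRPL45 also hold GCGCANGC, outside the stretch printed. They lie at chr21:34073428-34073607 on the plus strand, chr6:159789662-159789841 on the plus strand, chr11:6683311-6683490 on the minus strand, chr1:1407264-1407443 on the minus strand, chr12:6493233-6493412 on the minus strand and chr17:38297018-38297197 on the plus strand.
MRPS6: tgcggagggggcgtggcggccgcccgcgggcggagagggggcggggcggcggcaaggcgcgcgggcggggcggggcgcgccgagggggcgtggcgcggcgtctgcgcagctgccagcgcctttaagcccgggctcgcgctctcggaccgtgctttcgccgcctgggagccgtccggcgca
MRPL18: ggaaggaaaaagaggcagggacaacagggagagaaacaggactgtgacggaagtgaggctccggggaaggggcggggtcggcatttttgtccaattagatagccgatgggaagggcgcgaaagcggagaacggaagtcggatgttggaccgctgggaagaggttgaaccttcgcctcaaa
MRPL17: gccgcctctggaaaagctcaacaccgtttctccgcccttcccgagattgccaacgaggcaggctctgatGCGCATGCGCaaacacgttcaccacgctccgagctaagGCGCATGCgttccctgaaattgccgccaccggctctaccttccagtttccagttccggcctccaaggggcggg
MRPL20: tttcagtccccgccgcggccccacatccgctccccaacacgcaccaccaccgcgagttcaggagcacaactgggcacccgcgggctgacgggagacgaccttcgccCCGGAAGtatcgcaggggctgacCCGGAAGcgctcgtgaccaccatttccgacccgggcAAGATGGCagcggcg
MRPL51: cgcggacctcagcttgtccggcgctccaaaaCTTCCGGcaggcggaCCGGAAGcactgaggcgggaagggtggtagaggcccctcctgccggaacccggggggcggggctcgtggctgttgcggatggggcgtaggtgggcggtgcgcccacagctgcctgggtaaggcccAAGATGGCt
MRPL45: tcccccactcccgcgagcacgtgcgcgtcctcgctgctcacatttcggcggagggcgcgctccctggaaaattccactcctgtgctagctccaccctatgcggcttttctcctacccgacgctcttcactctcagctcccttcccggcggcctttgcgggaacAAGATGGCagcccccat

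Levels are given as FPKM, read numbers divided by gene length and by a total set for each library, as deposited by the authors. The members are a moderately to highly expressed set of widely differing level. In the controls their FPKM summed to 1622 at 24 h and 1622 at 48 h, and they took 0.374% and 0.367% of the reads on genes. MRPL41, a large-subunit protein found only in mitochondria, had the highest mean, at 140 and 149 FPKM in the controls. It was followed among the MRPL genes by MRPL14, at 57.5 and 63.1, MRPL37, at 71.7 and 70.1, and MRPL45, at 75.0 and 69.1. The highest MRPS genes were MRPS26, at 51.7 and 55.6 FPKM, MRPS35, at 58.0 and 59.5, MRPS34, at 43.2 and 46.4, and MRPS16, at 39.4 and 39.6. Among the 75 members tested, the lowest was MRPL46, at 1.48 and 1.20. The median MRPL gene stood above the median MRPS gene in every library, at 18.6 against 10.9 FPKM in the 24 h control and 13.4 against 10.1 FPKM in the 76 3P extract 48 h library, where they were closest. The summed MRPL level was 2.14 to 2.43 times the summed MRPS level across the 8 libraries, lowest in the 24 h control and highest in the 5-FU 48 h library. These sums weigh abundant genes most and do not show how the typical gene of each subunit moved. On the log2(FPKM + 1) scale the median difference from control at 48 h was 0.45 for MRPL and 0.18 for MRPS under 5-FU. It was 0.16 and 0.20 with the 74 3NP extract, and -0.30 and -0.25 with the 76 3P extract. No difference between the subunits was tested.

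The filter, FPKM of 1 or more in at least 2 libraries, removed 3 members. MRPL53 was listed at 0 in all 8 libraries, which allows up to 3 reads in each. MRPS24 reached at most 0.132 FPKM, and MRPL38 ran from 0.575 to 1.31 FPKM. Each of these genes lies within or across another annotated protein-coding gene on the same strand, CCDC142 for MRPL53, the readthrough gene URGCP-MRPS24 for MRPS24 and AC087289.3 for MRPL38. No source used here names the counting tool or its treatment of shared reads, so these low values cannot be read as absent expression. In all, 49 members overlap some other annotated gene and 23 overlap on the same strand, MRPL12 among them, and the use of strand in counting is likewise not given. Annotated pseudogenes of the members number 76, of which 59 were at 0 everywhere and 2 passed FPKM 1, MRPS31P4 and MRPL45P2. Reads shared between MRPS31 or MRPL45 and those copies make the values of these members less certain.

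**Figure D1:**
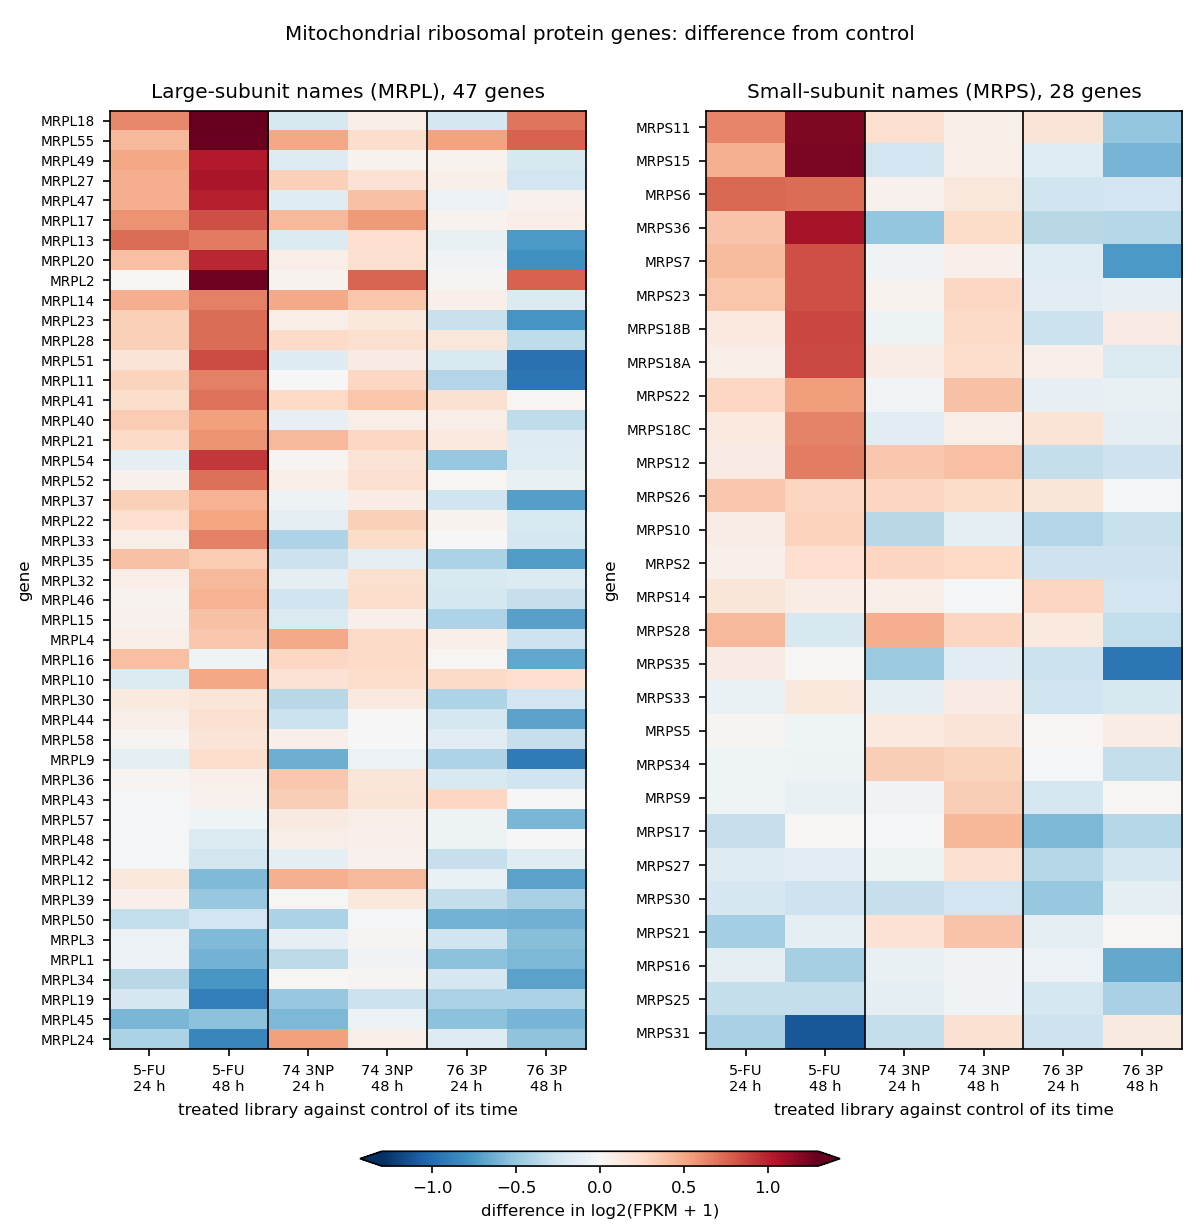
Difference in log2(FPKM + 1) between each treated library and the control of its time, 1 column per library and 1 row per tested member (47 MRPL genes left, 28 MRPS genes right), ordered by the fitted 5-FU difference; colours stop at 1.3 in either direction. The 5-FU 48 h column is mostly red with a blue foot, and the 76 3P extract 48 h column is mostly blue with MRPL55, MRPL2 and MRPL18 red.

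Under 5-FU most members stood above the controls, and MRPS6 was the one that passed the test. MRPS6, the counterpart of bacterial S6 in the small subunit (ENSG00000243927, chr21:34073224-34143034 in the files' coordinates), had 3.95 and 4.63 FPKM in the controls at 24 h and 48 h. It had 7.27 and 8.30 under 5-FU, 4.15 and 5.22 with the 74 3NP extract and 3.14 and 3.74 with the 76 3P extract. The 5-FU libraries were the highest, the 76 3P extract libraries the lowest, and those 2 groups overlapped neither each other nor the controls. The difference between 5-FU and control was 0.73 ± 0.17 (SE, n = 2 libraries per treatment) on the log2(FPKM + 1) scale, with an adjusted p of 0.0477 from limma with Benjamini-Hochberg adjustment. It was nearly the same at both times, at 0.74 and 0.72. This call is narrow: over 20 alternatives the difference kept its direction (0.46 to 0.85) and the adjusted p ran from 0.0451 to 0.426, past the threshold in 6 of them. MRPS6 spans SLC5A3 on the same strand, a solute carrier gene whose FPKM was 3.68 and 2.49 in the controls and 3.01 and 1.65 under 5-FU.

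Across the family, 1 of the 75 tested members was called under 5-FU, which is 1.33%, against 5.53% of all 13388 tested genes (740). At an unadjusted p under 0.05, 16 members were higher and 5 lower, where 3885 of 13388 tested genes passed in either direction. The fitted differences were above 0 in 53 members and below 0 in 22, with a median of 0.22 (0.25 for MRPL and 0.14 for MRPS), where the median over all tested genes was 0.003. Both 5-FU libraries lay above both controls in 42 members (56.0%), against 32.7% of all tested genes, and below both in 12 (16%), against 29.9%. The family therefore holds few calls but stands to the higher side of the table. The size of that shift depends on scaling, and with equal summed FPKM its direction turns. Summed FPKM of the members was 1811 at 24 h and 2213 at 48 h, 11.6% and 36.4% above the controls, but after scaling every library to the same summed FPKM the sums were 1.00 and 1.03 times the controls. With that scaling 37 members stood above 0 and 38 below. At an unadjusted p under 0.05, 4 were then higher and 11 lower, where 4166 of 13388 tested genes passed in either direction. The MRPL median was then 0.08 and the MRPS median -0.10, and with a loess correction for gene length they were 0.24 and 0.03. With equal summed FPKM the median of all genes moved to -0.21 and that of the members to -0.04, which is 0.17 above the table, against 0.21 above it in the values as deposited. With the length correction the member median was 0.15, which is 0.14 above the table. Tested members had a median length of 2539 bases, against 4416 for all tested genes. Over all tested genes the rank correlation of length with the 5-FU difference was -0.07 at 24 h and -0.24 at 48 h. Over the members it was 0.01 and -0.04. The part of length in the shift was not tested.

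The members with the largest differences under 5-FU came from both subunits. MRPL18, a protein of the central protuberance of the large subunit (ENSG00000112110, chr6:159789812-159798436), had 29.3 and 22.1 FPKM in the controls and 45.7 and 74.8 under 5-FU. In the other libraries it had 25.2 and 23.6 with the 74 3NP extract and 24.9 and 36.4 with the 76 3P extract. Its 5-FU difference was 1.17 ± 0.29 (SE), the largest of any member, and just missed the threshold at an adjusted p of 0.0513 in limma. The 48 h library alone was 3.39-fold above its control in FPKM (exact 95% interval 3.10 to 3.70, counting error only). MRPS11, on the platform of the small subunit (chr15:88467453-88480776), went from 7.83 and 7.56 FPKM in the controls to 12.8 and 18.8 under 5-FU, a difference of 0.92 ± 0.28 with an adjusted p of 0.0811. Both 5-FU values lay above all 6 others in MRPS11, the highest of which was 9.20 FPKM. MRPL55, the counterpart of bacterial L31, had 19.8 and 19.1 FPKM in the controls and 26.9 and 47.7 under 5-FU, with a difference of 0.85. MRPS15, MRPL49 and MRPL27 differed by 0.84, 0.77 and 0.76, and MRPL27, whose bacterial counterpart reaches the peptidyl transferase centre, had 10.2 and 10.8 FPKM in the controls and 14.5 and 23.6 under 5-FU. In each of these members the 5-FU 48 h library was the highest of all 8.

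A smaller part of the family was lower under 5-FU. MRPS31, a small-subunit protein found only in mitochondria (chr13:40729128-40771190), had 10.9 and 9.72 FPKM in the controls and 7.90 and 3.99 under 5-FU, a difference of -0.76 ± 0.28 with an adjusted p of 0.125. MRPL24, the counterpart of a bacterial protein near the mouth of the exit tunnel, had 24.0 and 27.5 FPKM in the controls and 17.9 and 14.9 under 5-FU, a difference of -0.63 with an adjusted p of 0.0951. For both genes the 5-FU libraries were the 2 lowest of the 8. MRPL45, which sits at the tunnel exit facing the inner membrane, differed by -0.56, MRPL19 by -0.56, MRPL34 by -0.55 and MRPL1 by -0.35. None of these 6 passed the test. Lower values were not particular to 5-FU in most of them. Both 76 3P extract libraries also lay below both controls in each but MRPS31 (against 30.2% of tested genes). Both 74 3NP extract libraries did so in MRPL45, MRPL19 and MRPL1 (against 29.8%). Large-subunit genes thus stood at both ends of the order, MRPL18 at the top and MRPL24, MRPL45, MRPL19 and MRPL34 near the bottom.

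The 48 h 5-FU library carried most of the difference. The median member stood 0.09 above control at 24 h and 0.35 at 48 h, while the median of all tested genes stood at 0.03 and -0.01. At 24 h, 4 members were at least 1.5-fold higher on this scale (5.33%, against 9.28% of tested genes) and 1 was lower (1.33%, against 8.84%). They were MRPL13, MRPL18, MRPS6 and MRPS11 on the higher side and MRPL45 on the lower. At 48 h, 28 were higher (37.3%, against 20.8%), 18 of them MRPL and 10 MRPS, and 5 were lower (6.67%, against 20.3%), MRPL1, MRPL19, MRPL24, MRPL34 and MRPS31. Differences at 1 time are between 1 library and 1 library and were not tested. The direction was the same at both times in 64 members, 46 higher (61.3%, against 37.7% of tested genes) and 18 lower (24%, against 35.6%). The difference was the larger at 48 h in 61 of 75 members, and in 9421 of the 13388 tested genes.

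**Figure D2:**
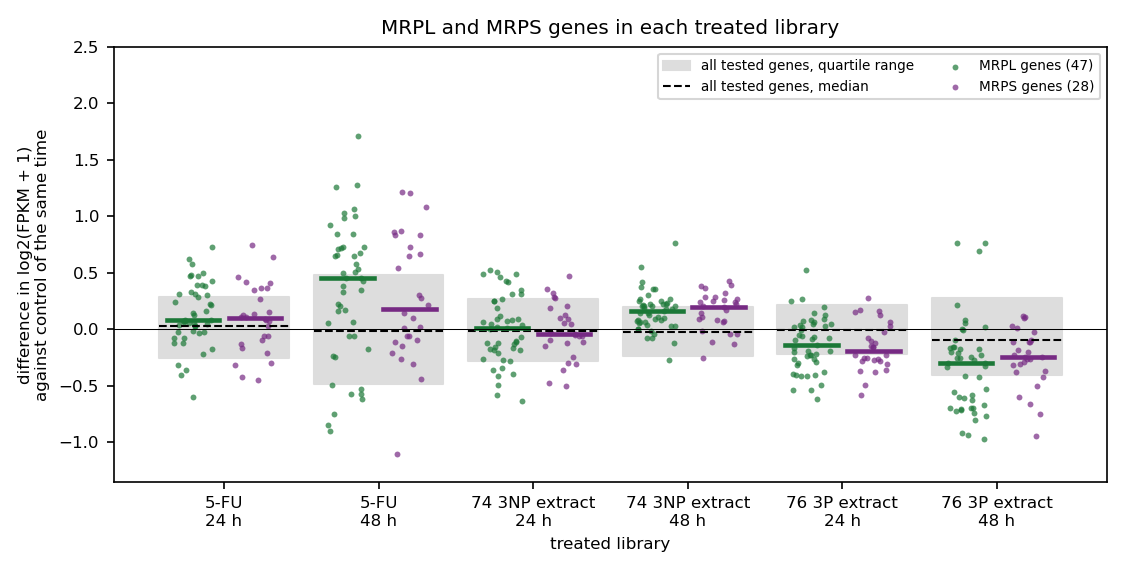
Difference in log2(FPKM + 1) from the control of the same time for each tested MRPL gene (green) and MRPS gene (purple), 1 position per treated library; coloured bars are medians, grey boxes the quartile range of all 13388 tested genes and dashed lines their median. The MRPL median is highest in the 5-FU 48 h library (0.45) and the MRPS median in the 74 3NP extract 48 h library (0.20, against 0.18 under 5-FU at 48 h), and both are lowest in the 76 3P extract 48 h library (-0.30 and -0.25).

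With the 74 3NP extract the family was close to the controls at 24 h and slightly above them at 48 h. No member was called by limma, where 0.0523% of tested genes were (7). Voom on recovered reads called none either, where it called 11 tested genes higher and 1 lower. At an unadjusted p under 0.05, 1 member was higher and 0 were lower, where 1623 of 13388 tested genes passed in either direction. The fitted median was 0.09, against -0.03 for all tested genes, with 48 members above 0 and 27 below. That direction is not firm, since with equal summed FPKM 36 members were above and 39 below, and without the 74 3NP extract 48 h library 37 were above and 38 below. With the length correction the median was 0.05. Both libraries lay above both controls in 26 members (34.7%, against 25.9% of tested genes) and below both in 10 (13.3%, against 29.8%). The member median was -0.03 at 24 h and 0.18 at 48 h. Below control at 24 h and above it at 48 h were 27 of the 75 members, and 1746 of the 13388 tested genes. At 1.5-fold, 0 members were higher at 24 h (against 10.2% of tested genes) and MRPL9 was lower (1.33%, against 7.57%), and at 48 h MRPL2 was higher (1.33%, against 6.77%) and 0 were lower (against 4.38%).

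The highest fitted members with the 74 3NP extract were MRPL17, MRPL12, MRPL14, MRPL2, MRPS28 and MRPS12, with differences of 0.48, 0.44, 0.42, 0.40, 0.38 and 0.37. MRPL12, the stalk protein that recruits translation factors in bacterial ribosomes, had 33.9 and 38.7 FPKM with this extract against 24.3 and 28.7 in the controls, and its adjusted p was 0.49. MRPL2, beside the peptidyl transferase centre, differed by 0.05 at 24 h and 0.76 at 48 h, and its 48 h control was low, at 1.89 FPKM against 3.06 at 24 h. MRPL17 had 23.7 and 28.8 FPKM against 17.5 and 19.4, with the lowest adjusted p of any member in this comparison, 0.376. Of MRPL12 and MRPL17, both extract libraries were above both controls, and MRPL17 was still higher under 5-FU, at 26.6 and 35.5. The lowest members were MRPL19, MRPL9, MRPL45, MRPS35, MRPS30 and MRPS10, from -0.38 to -0.24. MRPL9 had 14.0 and 19.0 FPKM, against 22.3 and 20.2 in the controls.

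With the 76 3P extract most members stood below the controls. The fitted median was -0.23 (-0.26 for MRPL and -0.20 for MRPS), against -0.05 for all tested genes, with 64 members below 0 and 11 above. No member was called by limma, where 0% of tested genes were. Voom called none either, where it called 24 tested genes higher and 36 lower. At an unadjusted p under 0.05, 9 members were lower and 1 was higher, where 2356 of 13388 tested genes passed in either direction. Both libraries lay below both controls in 40 members (53.3%, against 30.2% of tested genes), 25 MRPL and 15 MRPS, and above both in 4 (5.33%, against 22.4%). Summed FPKM of the members was 1505 at 24 h and 1302 at 48 h, and their share of reads on genes was 0.341% and 0.294%, the lowest of all 8 libraries. The sum fell short of control by 7.22% and 19.7% in FPKM and, with equal summed FPKM, stood at 0.935 and 0.754 times control, so the direction did not turn with scaling. Without the 48 h library the fitted median was -0.08, and without the 24 h library it was -0.33. The 4 fibroblast markers summed to 1.10 to 6.28 FPKM over the libraries, the 4 leukocyte markers to 0.218 to 1.29 and the 3 endothelial markers to 0.0177 to 0.541, highest in the 76 3P extract 48 h library, with COL1A2 and CDH5 at 0 in all 8. In that library 1 fibroblast marker alone had 6.21 of the 6.28 FPKM, and 1 leukocyte marker 1.20 of the 1.29. The sum of the 8 colon epithelium markers moved in the same direction from control as the summed FPKM of the members, with values of 1679 and 1358 FPKM here against 2026 and 1883 in the controls, 1785 and 2467 under 5-FU and 2176 and 2044 with the 74 3NP extract, except under 5-FU at 24 h, where they were below control. Not every colon epithelium marker moved with that sum. The lowest of the 8 values was 1.10 and 1.29 FPKM in the controls and 2.34 and 3.15 with the 76 3P extract. The highest was 764 and 696 in the controls and 609 and 480 with that extract. The part of these markers in the lower values of the members was not tested.

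At 24 h, 0 members were 1.5-fold higher with the 76 3P extract (against 5.61% of tested genes) and MRPL50 was lower (1.33%, against 5.87%). At 48 h, 21 members were lower (28.0%, against 15.2%), 17 MRPL and 4 MRPS, and 3 were higher (4%, against 13.7%), MRPL2, MRPL18 and MRPL55. The 4 lower MRPS genes were MRPS7, MRPS15, MRPS16 and MRPS35. The 5-FU and extract differences are taken from the same control libraries, and the values of members are set side by side below.

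MRPL11, a protein at the base of the factor-binding stalk (chr11:66435075-66466738), had 26.1 and 29.0 FPKM in the controls and 19.8 and 14.6 with the 76 3P extract. It had 32.0 and 46.1 under 5-FU and 26.1 and 35.0 with the 74 3NP extract. The difference for the 76 3P extract was -0.66 ± 0.25 (SE) with an adjusted p of 0.236. MRPL9 differed by -0.66 with an adjusted p of 0.259, and MRPL50, found only in mitochondria, by -0.62 with an adjusted p of 0.162, the lowest of any member. MRPL50 had 5.90 and 4.82 FPKM in the controls and 3.50 and 2.77 with this extract, lower in both libraries than in any other. Both 5-FU libraries and both 74 3NP extract libraries also lay below both controls in MRPL50. MRPL51 had 52.0 and 50.7 FPKM in the controls, 45.3 and 25.4 with the 76 3P extract and 58.4 and 91.8 under 5-FU. MRPL20, an early assembly protein in bacteria, had 24.5 and 22.5 FPKM in the controls, 23.7 and 12.5 with the 76 3P extract and 32.5 and 45.4 under 5-FU. In MRPL20 and MRPL51 the 48 h libraries of these 2 treatments are the extremes of the 8, while at 24 h the 76 3P extract values differed from control by -0.05 and -0.19. MRPL55 went against the rest, at 28.9 and 33.1 FPKM, and was the highest fitted member, at 0.65 with an adjusted p of 0.275. Among members above control at both times, MRPL2, MRPL10, MRPL41, MRPL17 and MRPS5 followed, from 0.40 to 0.06. MRPL18 and MRPL43, which had opposite signs at the 2 times, had fitted differences of 0.23 and 0.13.

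**Figure D3:**
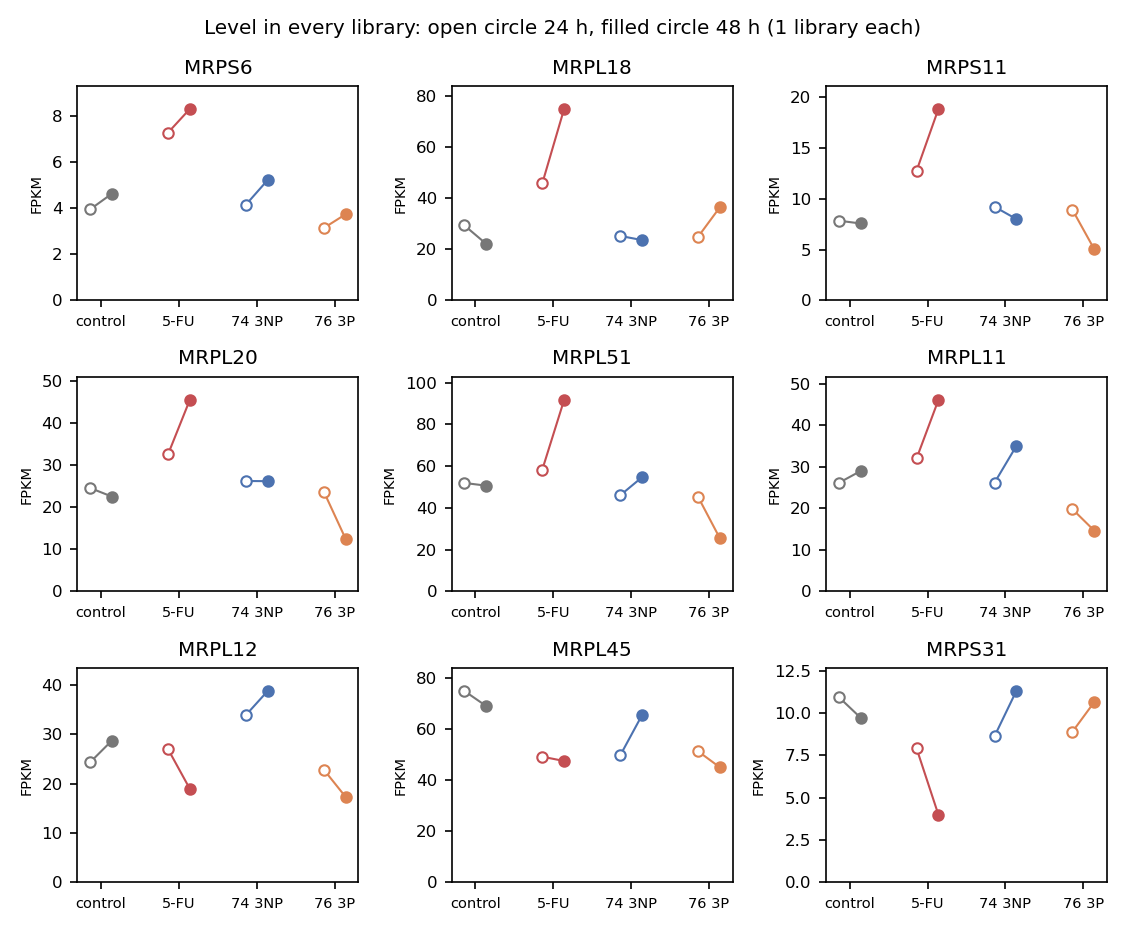
FPKM of 9 members in every library, by treatment; open circles are 24 h, filled circles 48 h, joined within a treatment, 1 library each, with axes from 0. MRPS6, MRPL18 and MRPS11 are highest under 5-FU at both times, and MRPL20, MRPL51 and MRPL11 are high under 5-FU and low with the 76 3P extract at 48 h. MRPS31 is low under 5-FU, and MRPL45 is below both controls with all 3 treatments.

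The 2 extracts stood apart from each other in most members. The fitted difference, 74 3NP extract minus 76 3P extract, was above 0 in 71 members and below 0 in 4, with a median of 0.30 against 0.03 for all tested genes. It was 0.34 for MRPL and 0.28 for MRPS. With equal summed FPKM, scaling to total reads, quantile normalization or voom, 64 members were above 0 and 11 below. No member was called by limma, where 0% of tested genes were. Voom called none either, where it called 11 tested genes higher and 4 lower. At an unadjusted p under 0.05, 11 members were higher and 0 lower, where 1726 of 13388 tested genes passed in either direction. Both 74 3NP extract libraries lay above both 76 3P extract libraries in 47 members (62.7%, against 22.9% of tested genes), and below both in MRPL55 alone (1.33%, against 19.1%). The median difference was 0.14 at 24 h and 0.47 at 48 h. The 6 highest were MRPL12, MRPL11, MRPS17, MRPS12, MRPL24 and MRPL23, at 0.83, 0.79, 0.68, 0.66, 0.65 and 0.63. MRPL12 had 22.8 and 17.3 FPKM with the 76 3P extract, against 33.9 and 38.7 with the 74 3NP extract, a difference of 0.83 ± 0.24 (SE) and an adjusted p of 0.249. MRPS12, a protein of the decoding centre, had 38.4 and 34.5 FPKM with the 74 3NP extract and 24.0 and 21.5 with the 76 3P extract. The groups do not overlap for either gene. For MRPS17 the adjusted p of 0.236 was the lowest of the family.

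**Figure D4:**
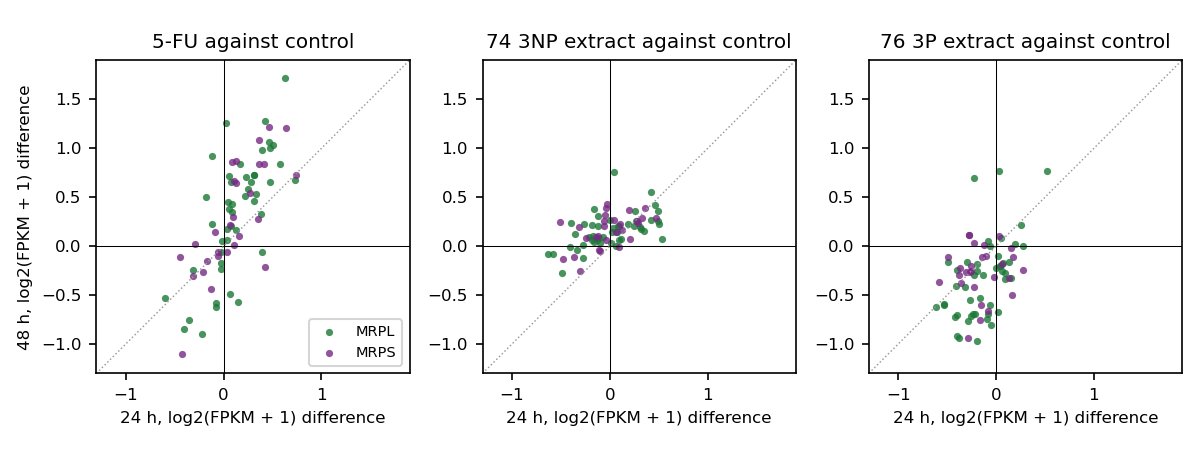
Difference in log2(FPKM + 1) from control at 24 h (horizontal) and 48 h (vertical) for each tested member, MRPL green and MRPS purple, 1 panel per treatment; the dotted line marks equal values. Under 5-FU 46 members are above 0 at both times (61.3%, against 37.7% of tested genes), and with the 74 3NP extract 36 (48%, against 33.0%). With the 76 3P extract 46 are below 0 at both times (61.3%, against 38.4%).

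Sorting the members by their place in the assembled ribosome changed little. MRPS18A and MRPS30 belong to the large subunit despite their names, and MRPS36 is now counted with the 2-oxoglutarate dehydrogenase complex (its name there is KGD4). With these moved, the medians were 0.25 for 49 large-subunit and 0.13 for 25 small-subunit genes under 5-FU, and -0.26 and -0.17 with the 76 3P extract. The 45 members with a bacterial counterpart had a median of 0.25 under 5-FU and the 29 found only in mitochondria 0.10. With the 76 3P extract these medians were -0.25 and -0.23. In all 29 mitochondria-specific members the fitted difference between the extracts favoured the 74 3NP extract. Of the 3 genes named after bacterial S18, which occupy different sites, MRPS18A (mL66), MRPS18B (mS40) and MRPS18C (bS18m) differed by 0.47, 0.50 and 0.39 under 5-FU and by -0.06, -0.08 and 0.03 with the 76 3P extract. The stalk pair did not match, since MRPL10 stood at 0.24 with the 76 3P extract and MRPL12 at -0.39. MRPL58, a peptidyl-tRNA hydrolase built into the ribosome, differed by 0.10, 0.03 and -0.22 under 5-FU, the 74 3NP extract and the 76 3P extract. No difference between these classes was tested. Members with a CCGGAAG match had a median of 0.36 under 5-FU (27 tested) and those without 0.13 (39 tested). With the 76 3P extract the medians were -0.12 and -0.30. For AAGATGGC they were 0.31 with a match and 0.14 without under 5-FU, and -0.27 and -0.19 with the 76 3P extract. For GCGCANGC they were 0.15 and 0.20 under 5-FU, and -0.22 and -0.26 with the 76 3P extract. No difference by motif was tested.

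The other parts of the mitochondrial translation system are described by lists of genes chosen by function, and no difference between a list and the members was tested. Of the 5 mitoribosomal proteins without an MRP name, AURKAIP1 and GADD45GIP1 differed by 0.81 and 0.75 under 5-FU and PTCD3 by -0.69. AURKAIP1 had 67.8 and 70.8 FPKM in the controls and 93.8 and 160 under 5-FU, and none of the 5 passed the test in any comparison. Between the extracts all 5 had a fitted difference above 0, on the side of the 74 3NP extract. Among 14 translation factors tested, 3 were above and 11 below control under 5-FU, with a median of -0.27, and MTFMT, which formylates the initiator methionyl-tRNA, fell. MTFMT had 6.27 and 7.0 FPKM in the controls and 3.55 and 3.21 under 5-FU, a difference of -0.80 with an adjusted p of 0.0459 in limma, and this call was lost in 11 of 20 alternatives (adjusted p up to 0.424). TACO1, an activator of the translation of MT-CO1, OXA1L, which inserts new proteins into the inner membrane, and PDF, a deformylase, differed by 0.66, -0.49 and -0.41 and did not pass.

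Of 28 genes for ribosome assembly and modification of its RNA, 12 were above and 16 below control under 5-FU, and RPUSD4, a pseudouridine synthase for mitochondrial RNA, fell by 1.08 with an adjusted p of 0.0304. The next largest differences in that list were on the higher side and just short of the threshold: 0.92 for MPV17L2 (adjusted p 0.0684), 0.86 for MTG2, a GTPase of large-subunit assembly (0.056), and 0.76 for MALSU1, an assembly factor of the large subunit (0.0673). Of 18 mitochondrial aminoacyl-tRNA synthetase genes, 8 were above and 10 below, and NARS2, for asparagine, fell by 1.32 with an adjusted p of 0.033, from 9.83 and 10.4 FPKM to 4.86 and 2.36. IARS2, WARS2 and HARS2, for isoleucine, tryptophan and histidine, differed by -0.76, -0.68 and 0.55 and did not pass. Of 12 genes for transcription and RNA processing, 5 were above and 7 below, and LRPPRC, which stabilises mitochondrial mRNAs, fell by 0.94 with an adjusted p of 0.0425. HSD17B10, a subunit of mitochondrial RNase P, SLIRP, the partner of LRPPRC, and PNPT1, a ribonuclease, differed by 0.85, 0.67 and -0.33 and did not pass. Of 8 regulators of nuclear mitochondrial genes, 2 were above and 6 below, and MYC, a transcription factor that drives growth and ribosome genes, fell by 1.39 with an adjusted p of 0.0434, from 35.3 and 39.1 FPKM to 20.8 and 8.75. GABPA, GABPB1 and YY1 differed by -0.30, 0.36 and -0.25 and did not pass. In each of these 4 lists 1 gene was called, lower. Of all 13388 tested genes, 404 were called lower and 336 higher under 5-FU, and 6736 stood above 0. Over 20 alternatives the calls of RPUSD4 and NARS2 were lost in 6 each and those of LRPPRC and MYC in 8 each, with the direction kept. With the 76 3P extract, 21 of 28, 16 of 18, 11 of 12 and 5 of 8 genes of these lists were below control, with medians of -0.18, -0.18, -0.31 and -0.18, and none passed. Over all tested genes the median with that extract was -0.05, and 5979 of 13388 stood above 0. TFAM, which packages mitochondrial DNA, had 15.0 and 16.8 FPKM in the controls and 8.88 and 6.88 with that extract, a difference of -0.94 with an adjusted p of 0.145.

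The ribosomal RNAs made inside the organelle stood above the control of the same time with all 3 treatments. MT-RNR2 had 1926 and 2210 FPKM in the controls, 3625 and 6579 under 5-FU, 2471 and 4387 with the 74 3NP extract and 3636 and 10001 with the 76 3P extract. For MT-RNR2 all treated libraries exceeded both controls, and the 76 3P extract 48 h library was the highest. The 76 3P extract difference was 1.55 ± 0.31 (SE) with an adjusted p of 0.0924 in limma, and the 5-FU difference 1.24 with an adjusted p of 0.0558. MT-RNR1 differed by 1.08 and 0.74 in the same comparisons, and by 0.39 with the 74 3NP extract. It had 522 and 747 FPKM in the controls and 623 and 1747 under 5-FU. With the 74 3NP extract it had 530 and 1256, and with the 76 3P extract 777 and 2231. Its 24 h values under 5-FU and with the 74 3NP extract were thus below the 48 h control. The 13 mitochondrially encoded mRNAs were all above control under 5-FU, with a median of 0.85, and 0 passed. The largest differences were 1.14 for MT-ND1, 1.10 for MT-CO2, 1.09 for MT-ND5 and 1.06 for MT-ND6, and the lowest adjusted p of these was 0.0554, for MT-CO2. With the 76 3P extract 11 of 13 were above control, with a median of -0.16 at 24 h and 0.79 at 48 h. In the 76 3P extract 48 h library, then, the family stood at its lowest and the organelle's ribosomal RNAs at their highest. How far the share of mitochondrial reads, which moved with these values, bears on them was not tested.

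**Figure D5:**
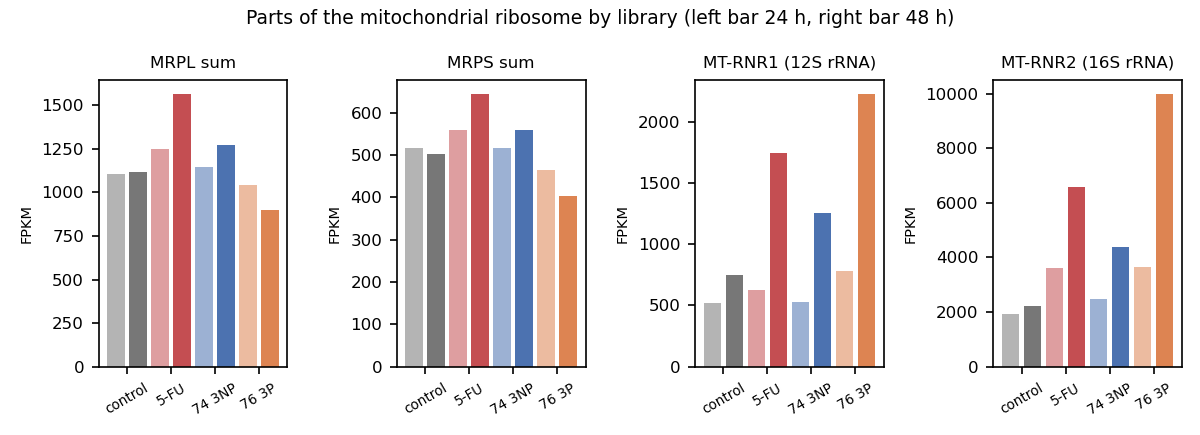
Summed FPKM of the 49 MRPL genes, summed FPKM of the 29 MRPS genes, and FPKM of the ribosomal RNAs MT-RNR1 and MT-RNR2 in each library; in each pair of bars the left is 24 h and the right 48 h, and axes start at 0. The protein mRNA sums are lowest in the 76 3P extract 48 h library (898 and 404) while both RNAs are highest there (2231 and 10001).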

How the data were processed

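The authors' deposited table holds FPKM values for 8 libraries. Per the submitters' processing notes, HISAT2 2.0.5 did the mapping, and GRCh38 and hg38 appear as builds. No source used here gives the counting tool, its use of strand or the annotation release. A second deposited table gives counts of clean reads per library (44361052 to 68674126) and percent GC (51.88 to 53.94), per the file headers.

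Each library has a step of which 100% of its FPKM values times gene length are whole multiples (tolerance 0.01), which recovers reads on genes. The steps did not follow the library totals. The filter kept 13388 genes that reached FPKM 1 in at least 2 libraries. Values were taken as log2(FPKM + 1), so folds of low genes are understated. limma 3.58.1 in R 4.3.3 used all 8 libraries in 1 fit, with additive treatment and time and a variance trend (3 residual degrees of freedom, prior 5.39). Tests were two-sided with Benjamini-Hochberg adjustment over all tested genes and a threshold of 0.05. The SE rests on the change of treatment differences from 24 h to 48 h, moderated over genes, since each treatment has 1 library per time. Because the values are FPKM, voom on the recovered reads was an alternative only. The scripts were tested on simulated data. Intervals cover counting error only.

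The rule for the members rests on names and uses no measured value. That rule, the gene lists and the tests were nonetheless chosen with earlier results of these data known. Named are members past the test, the 6 highest and 6 lowest per comparison with 1 sign at both times, the most abundant, the untested and the letter-suffixed members, MRPL10, MRPL12 and MRPL58, and list genes past the test or among the 4 largest differences. Members named with the 1.5-fold counts or for their promoters were chosen after their values were seen where they fall outside that rule. Promoter sequences are from RefSeq (GRCh38.p14). Python 3.11.15 with pandas 2.3.3 was used for counts, and matplotlib 3.10.9 for plots.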

Additional observations from a re-analysis of the deposited data

Results flagged for a closer look

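The difference of the members from control with the 74 3NP extract had opposite signs at the 2 times, with a median of -0.028 at 24 h and 0.179 at 48 h. For the MRPS genes alone the medians were -0.0398 and 0.201. There is 1 library at each time, and the difference between the times was not tested. Groups of 2 libraries were too small for a check of outlying samples.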

How the results depend on the processing

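With 2 libraries per treatment, the number of members called under 5-FU was unstable, while the direction of the medians was less so. The count of members called higher under 5-FU was 1, and 0 with no filter, with scaling to total reads, with equal summed FPKM, with no variance trend, with no time term and with the loess correction for gene length. Over all tested genes 336 were called higher, and 0 with no filter. With the remaining settings just named they ranged from 175, with no time term, to 278, with the loess correction. The member count was 3 with the filter at FPKM 5 (MRPL17, MRPL18 and MRPS11), where 469 of 8059 tested genes were called higher. It was 2 with only the 4 libraries compared (MRPL18 and MRPS11), where 675 of 13388 were. With equal summed FPKM 1 member was called lower, MRPL24, where 1010 of 13388 tested genes were. Leaving out a library in turn gave 0 to 13 higher and 0 to 2 lower. The 13 and 2 came without the 5-FU 24 h library, where the lone 5-FU library is assumed to vary like the other groups; without either 76 3P extract library it was 3, and without either control, the 5-FU 48 h or either 74 3NP extract library it was 0. In the other comparisons 0 members were called under every alternative run. The member median under 5-FU became -0.0416 with equal summed FPKM and was 0.082 to 0.369 when a library was left out. For the 74 3NP extract it became -0.00411 with equal summed FPKM and ranged from -0.00698 to 0.15 when a library was left out, the lowest without the 74 3NP extract 48 h library. For the 76 3P extract it was -0.154 with a pseudocount of 5 and -0.333 to -0.0847 when a library was left out, and 74 3NP minus 76 3P ranged from 0.163 to 0.429. Equal summed FPKM and the length correction were added after seeing the data, and the cause of these changes was not tested. The named members that changed sign did so when a library was left out. Without the 48 h control, MRPL17 and MRPL2 with the 76 3P extract stood at -0.0063 and -0.0499 (up to 0.136 and 0.844 without another) and MRPL2 with the 74 3NP extract at -0.0432 (up to 0.851). MRPL41 with the 76 3P extract ran from -0.0762, without its 24 h library, to 0.294, and MRPL55 between the extracts from -0.601 to 0.0408, the latter without the 74 3NP extract 48 h library. Of the single-gene values recomputed, 1391 kept their direction and side of the threshold, 53 lost a call, 63 gained one and 5 changed sign. No paired analysis was possible because the labels give no replicate numbers and each treatment has 1 library per time, which the fit already holds as a term.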
